A study of Mus musculus with 12 samples.

Results

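The genes for the proteins of the cytosolic ribosome were taken from the RefSeq gene table of GRCm38.p6 by symbol, as protein-coding genes whose symbols begin with Rpl, Rps or Rplp and a digit, without the Rps6k kinases. This gave 90 of 21900 protein-coding genes. Accessible regions were assigned to the gene they overlap, or to the gene with the nearest start or end within 50000 bases. Of the 16028 regions in the series, 79 belonged to these genes, and they covered 74 of the 90 genes. The symbols took in 76 core genes, 46 for the large and 30 for the small subunit. They also took in 8 paralogs, 5 retrogenes or genes with pseudogene-like symbols, and Rps19bp1, which encodes a binding partner of Rps19 and no ribosomal protein.

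Open chromatin was mapped by ATAC-seq, in which a transposase inserts sequencing adapters into open DNA, in mouse ER-Hoxa9-Lys-GFP cells of strain C57BL/6. These cultured myeloid progenitors carry Hoxa9 fused to the estrogen receptor, which blocks their maturation while estradiol (E2) is present, and a GFP reporter of lysozyme, and every group carried both. The series concerns the point at which such cells become committed to differentiate. The 12 libraries formed 6 groups of 2. The labels describe nuclei of 1 preparation split into paired transposition reactions, so the libraries of a group may be technical replicates. One group stayed in E2, another spent 120 h without it, and the others spent 24, 40, 56 or 72 h without E2 and then 96, 80, 64 or 48 h with E2 added back. All groups grew in RPMI with serum and medium conditioned with stem cell factor, per the labels, and whether the line was 1 clone is not given in the sources used here. Each group had 1 deposited peak list for both libraries, with chromosome, start and end and no score. There were therefore no replicate values, no test between conditions was possible, and depth was unknown. A region without a peak in a list is a missing call and no measurement of closed chromatin. Intervals below are 95% Wilson intervals that cover counting error over regions only. Because longer withdrawal came with shorter add-back, both durations form 1 variable, and the groups are named by hours without E2. In bulk cells, fewer cells with an open site and less opening per cell cannot be told apart. After cleaning, the lists held 13165, 11465, 9940, 8989, 9581 and 7987 peaks at 0, 24, 40, 56, 72 and 120 h. Of 8 myeloid progenitor markers, 7 had a region called in continuous E2 and 4 at 120 h. Of these 4, only Spi1 had its 120 h call within 1000 bases of the gene's start or end. Cd34, Flt3 and Cebpa were called at 120 h only in regions 33863, 11118 and 28989 bases from the gene's nearest start or end. Of 12 markers of other lineages, 2, Cd3d and Pax5, had a region.

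Cytosolic ribosomal proteins assemble with ribosomal RNA into the large and the small subunit of the ribosome, and nearly every growing cell makes them in matched amounts. Their genes are short and strongly transcribed, many carry small nucleolar RNAs in their introns, and their transcripts begin with a terminal oligopyrimidine tract, the TOP motif, through which mTOR signalling controls translation. Mutations of several of them cause Diamond-Blackfan anemia in people. In blood progenitors, protein synthesis is tuned closely as cells leave the immature state.

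Promoters of 6 genes are shown because their start regions stand for the 3 patterns described below. Rpl41 (chr10:128549149-128549268, minus strand) and Rpl10 (chrX:74270716-74270835, plus strand) had the widest regions of those called in every list. Rps4x (chrX:102189372-102189491, minus strand) was called in E2 and not at 120 h. Rpl38 (chr11:114668480-114668599, plus strand), Rpl34 (chr3:130730379-130730498, minus strand) and Rpl14 (chr9:120571417-120571536, plus strand) were called at 120 h and not in E2. Sequences are from RefSeq (GRCm38.p6), 5′ to 3′ along the gene, from 100 bases before the annotated start to the first 20 bases of the transcript. Capitals mark matches, on either strand, to the motifs given further on, and runs of 8 or more C or T within 20 bases of the start.
Rpl41: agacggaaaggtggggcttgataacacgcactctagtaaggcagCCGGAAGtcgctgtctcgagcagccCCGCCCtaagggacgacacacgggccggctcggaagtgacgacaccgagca
Rpl10: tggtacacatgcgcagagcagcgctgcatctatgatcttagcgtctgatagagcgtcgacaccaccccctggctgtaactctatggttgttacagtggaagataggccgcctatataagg
Rps4x: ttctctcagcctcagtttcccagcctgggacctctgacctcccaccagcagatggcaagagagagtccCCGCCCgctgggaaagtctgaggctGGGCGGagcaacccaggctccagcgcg
Rpl38: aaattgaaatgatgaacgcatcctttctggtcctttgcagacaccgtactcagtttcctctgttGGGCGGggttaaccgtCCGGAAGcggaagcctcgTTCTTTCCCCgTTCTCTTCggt
Rpl34: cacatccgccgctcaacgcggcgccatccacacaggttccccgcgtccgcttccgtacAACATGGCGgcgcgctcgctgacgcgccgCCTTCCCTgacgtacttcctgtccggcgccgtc
Rpl14: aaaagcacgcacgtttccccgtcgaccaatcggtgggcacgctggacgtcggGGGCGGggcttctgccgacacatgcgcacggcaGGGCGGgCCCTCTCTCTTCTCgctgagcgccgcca

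Most member regions lay at the ends of their own genes. Of the 79 regions, 69 (87.3%) lay within 1000 bases of the start or end of their own gene, against 49.6% of all regions. Regions this close to a gene start or end are called boundary regions below. Another 4, at Rpl19, Rpl22, Rps2 and Rps27l, covered an annotated transcript start inside a gene whose outermost boundary lay further off. The other 6 were a region of Rpl17, 1057 bases inside the gene from its nearest boundary, and 5 outside genes. Rpl17 had no start in the RefSeq promoter table, so whether its region covered a start is not known. The 5 outside genes lay 2477 bases from Rpl12, 1886 and 7592 bases from Rpl14, 2877 bases from Rpl21 and 18643 bases from Rps20. Of the 58 regions whose gene had a start in the RefSeq promoter table, 54 covered such a start. Members were short, with a median length of 3170 bases against 17146 bases for all protein-coding genes, so start and end lie close together.

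Each of the 76 core genes was overlapped by a region in some list, counting regions assigned to a neighbour. By assignment alone 70 of the 76 had one. The other 6 shared a region with an adjoining gene that it also overlapped. Such a region went to the gene whose boundary lay in or nearest to it and, where both boundaries lay in it, to the one nearest its centre. Rplp2, a protein of the stalk that recruits elongation factors, shared one with Pidd1, Rps25 with Trappc4, Rps18 with Vps52 and Rps28 with Ndufa7, and all of these were called in every list. Rpl4, which lines the exit tunnel, shared a region with Zwilch that was not called at 24 or 56 h. Rpl7 touched a wide region of Rdh10 that was called at 0, 24 and 40 h only. In return, 8 regions assigned to members held the boundary of another protein-coding gene, namely Lrsam1 at Rpl12, Nkiras1 at Rpl15, Card6 at Rpl37, Zc3h10 at Rpl41, Med22 at Rpl7a, Lias at Rpl9, Rab13 at Rps27 and Clhc1 at Rps27a. At such shared starts the lists cannot tell which gene a peak belongs to.

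Most genes outside the core had no region. Of the 8 paralogs, Rpl22l1, Rpl7l1 and Rps27l had 1 each, all in every list, while Rpl36al overlapped a region of Mgat2 called in every list. Rpl3l, a paralog of striated muscle, had none, although a region of Msrb1 lay within 1000 bases of it. No region lay within 1000 bases of Rpl10l and Rpl39l, known for expression in testis, or of Rpl32l. The same held for the retrogenes or pseudogene-like symbols Rpl37rt, Rps27rt, Rps23rg1, Rpl34-ps1 and Rpl31-ps12. Rps19bp1 had 1 region in every list. None of 312 pseudogenes named after ribosomal proteins overlapped a region, which allows a share of up to 0.962%, against 118 of 10130 other pseudogenes (1.16%). How reads that match several near-identical copies were placed is not given in the sources used here.

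All 6 lists called 55 of the 79 regions (69.6%, interval 58.8 to 78.7), against a background of 32.8% over all regions and 51.8% over boundary regions. Related gene lists, described further on, had shares of 63.2% for translation factors and 65.0% for ribosome biogenesis genes. Both lay inside the members' interval. Mitochondrial ribosomal protein genes had 47.5%. With only the wider peaks of each list, at or above its median width, the share was 25.8% of members, against 23.3% over all regions and 29.5% at boundaries. With lists of equal length it was 49.3%, against 29.7% and 42.7%. The difference between members and all regions was thus smaller with the wider peaks only. The 55 regions were 31 regions of large-subunit genes, 20 of small-subunit genes, those of the 3 paralogs and that of Rps19bp1. Among them were Rps19 and Rps24 of the small subunit and Rpl5 and Rpl11 of the large one, all Diamond-Blackfan genes. Rpl5 and Rpl11 also form the particle that restrains Mdm2 when ribosome assembly fails. Rps14, the gene behind the anemia of the 5q syndrome, Rps6, the S6 kinase substrate, Rplp0 and Rplp1 of the stalk, Rpl22 and Rpl10, both mutated in T cell leukemia, and the tunnel protein Rpl39 were in this set too. Other large-subunit genes in it included Rpl3, Rpl6, Rpl7a, Rpl10a, Rpl12, Rpl13, Rpl13a, Rpl15, Rpl21, Rpl23, Rpl23a, Rpl24, Rpl26, Rpl27, Rpl27a, Rpl28, Rpl29, Rpl30, Rpl35a, Rpl36a, Rpl37 and Rpl41, and the region 1886 bases from Rpl14. Other small-subunit genes included Rps2, Rps3a1, Rps7, Rps12, Rps13, Rps15a, Rps16, Rps20, Rps21, Rps23, Rps26, Rps27, Rps27a and Rps29. A further 13 regions were called in 5 lists and 11 in 2 to 4. No member region was called in 1 list only, which allows a share of up to 3.80%, whereas 19.8% of all regions and 6.86% of boundary regions were.

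**Figure D1:**
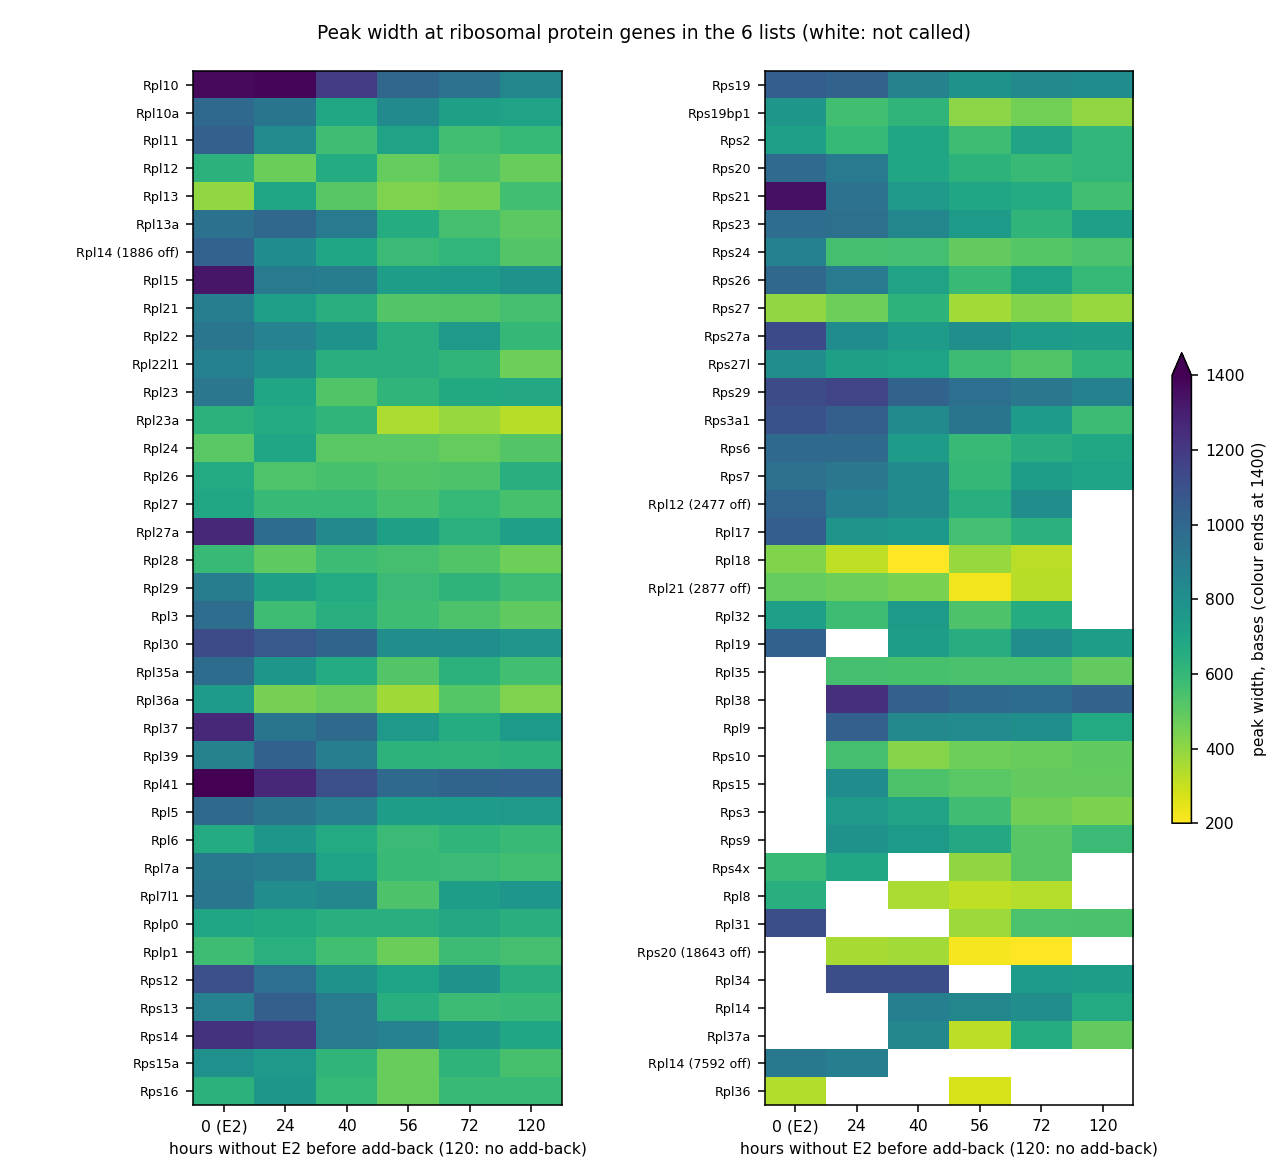
Each row is 1 of 74 regions of ribosomal protein genes and each column 1 of the 6 peak lists, by hours without E2. Colour is the summed width in bases of the list's peaks in the region, and white means not called. The largest widths share the darkest colour. Numbers beside repeated names give the bases to the gene's boundary. The 52 drawn regions called in every list fill the left panel and the top of the right one, and the white cells of continuous E2 and of 120 h coincide in 1 region, that far from Rps20.

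The share of member regions called was lowest in continuous E2, the longest list, and highest at 56 and 72 h, although the intervals of 0 and 120 h overlap. Calls numbered 67 of 79 at 0 h (84.8%, interval 75.3 to 91.1), 71 at 24 h (89.9%), 74 at 40 h (93.7%), and 77 at 56 h (97.5%, 91.2 to 99.3). They numbered 77 again at 72 h (97.5%), then 69 without add-back at 120 h (87.3%, 78.2 to 93.0). All regions had their highest share in continuous E2, with 82.1%, 71.4%, 61.9%, 55.9%, 59.5% and 49.7% called in the same order. Regions of members at their own boundary were called in 84.1%, 89.9%, 94.2%, 98.6%, 98.6% and 92.8% of cases (n = 69). All regions at a gene boundary were called in 86.9%, 84.1%, 81.2%, 79.0%, 81.6% and 68.0% (n = 7947). Boundary regions of translation factors, a list described further on, were called in 93.9%, 87.9%, 93.9%, 87.9%, 97.0% and 84.8% (n = 33). Those of ribosome biogenesis genes were called in 87.9%, 90.9%, 87.9%, 87.9%, 93.9% and 87.9% (n = 33). Both of these lists thus also had their highest share at 72 h. In continuous E2 the interval of the members at their boundary, 73.7 to 90.9, thus held the value of all boundary regions, while at 120 h its lower bound of 84.1 lay above their 68.0%. When each list was limited to its wider peaks, no narrower than the list's median, the share at 56 h lay below that at 0 h. Member regions were then called in 67.7%, 61.3%, 64.5%, 54.8%, 72.6% and 61.3%, and all boundary regions in 76.7%, 70.4%, 64.5%, 60.5%, 64.5% and 53.8%.

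**Figure D2:**
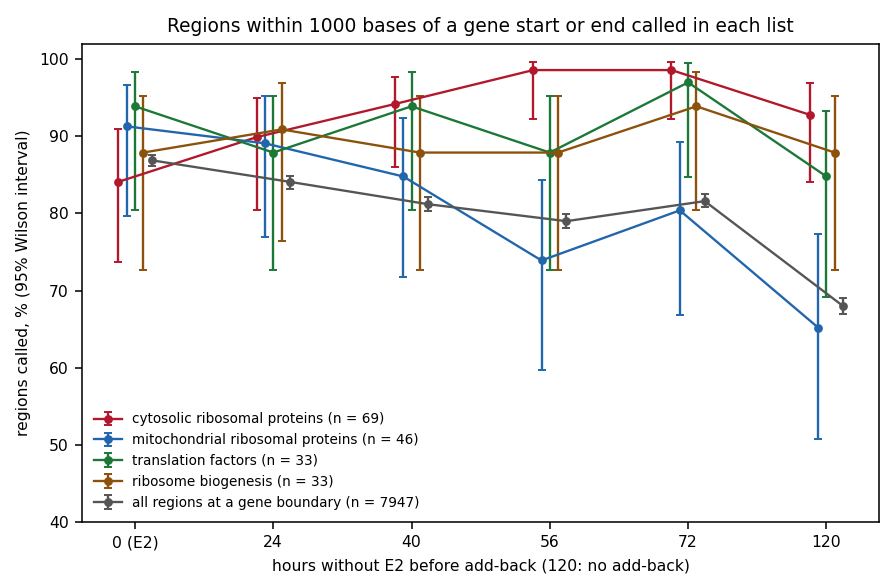
The share of boundary regions (up to 1000 bases from a gene start or end) called by each list, in percent with 95% Wilson intervals, by hours without E2, for cytosolic ribosomal protein genes, 3 related gene lists and all such regions. The line of cytosolic ribosomal protein genes starts at 84.1% at 0 h and reaches 98.6% at 56 and 72 h, where all boundary regions are at 79.0% and 81.6%, after 86.9% at 0 h; the vertical axis begins at 40%.

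Between continuous E2 and 120 h, 58 member regions were called in both lists (kept), 9 in E2 only (lost) and 11 at 120 h only (gained), and 1, far from Rps20, in neither. Lost regions made up 13.4% of the members' E2 regions (interval 7.23 to 23.6), against a background of 50.6% over all regions and 29.6% over boundary regions. Gained regions made up 15.9% of the members' 120 h regions (9.14 to 26.3), against 18.4% over all regions and 9.96% over boundary regions. At their own boundary members had 5 lost regions (8.62% of 58) and 11 gained ones (17.2% of 64). With the 24 h list in place of continuous E2, members had 6 gained regions (8.70%), against 18.6% over all regions and 9.55% at boundaries, so the members' gained share was near the boundary background in that setting. With all lists reduced to the length of the shortest by keeping their widest peaks, lost regions were 6.67% of members against 38.5% over all regions and 25.1% at boundaries. Gained regions were then 39.1% of members, near the 38.3% over all regions and above the 25.3% at boundaries. With only the wider peaks of each list, lost regions were 38.1% of members (interval 25.0 to 53.2) against 53.4% over all regions and 43.2% at boundaries. Gained regions were then 31.6% (19.1 to 47.5) against 23.4% and 19.1%. With the wider peaks the boundary value for lost regions thus lay inside the members' interval, as did the value over all regions for gained ones.

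The gained regions all lay at gene boundaries and were of ordinary width in the lists that called them. Small-subunit genes among them included Rps3, Rps9, Rps10 and Rps15, and large-subunit genes were Rpl9, Rpl14, Rpl34, Rpl35, Rpl37a and Rpl38. Absent from continuous E2 alone were 7 of them (8.86% of member regions), against 1.99% of all regions and 2.77% of boundary regions. With only the wider peaks the share was 3.23% of members, against 2.00% and 2.46%, and with lists of equal length 14.7%, against 4.93% and 6.61%. Whether the continuous E2 list analysed here is complete at these 7 regions cannot be told from the lists, so absent and gained mean only that this list holds no peak there. Rpl38, a large-subunit protein needed for translation of Hox transcripts in mouse embryos, was 1238, 1032, 989, 974 and 1016 bases wide at 24, 40, 56, 72 and 120 h. Its region (chromosome 11, 114668047 to 114669284, GRCm38) covered an annotated start, and the nearest E2 peak lay 5916 bases away. Rpl9 had widths of 1034, 833, 822, 804 and 666 bases (chromosome 5, 65390909 to 65391942). Both were thus wide at 24 h and missing at 0 h. Rps9 had widths of 788, 746, 677, 512 and 580 bases. Rps3, at the entry of the mRNA channel, had 757, 700, 566, 461 and 437 bases. Rps15, Rps10 and Rpl35 were called with 817, 556 and 552 bases at 24 h and 487, 491 and 490 bases at 120 h. All 7 were called in each list from 24 to 120 h. Over these 7 regions the median width at 24 h was 788 bases, against 816 bases for the 55 member regions called in all lists. The 220 boundary regions absent from continuous E2 alone had a median of 842 bases at 24 h.

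Other gained regions were also missing from 1 of the add-back lists. Rpl14 (chromosome 9, 120570866 to 120571779), whose promoter is printed above, was 882, 847, 807 and 667 bases wide at 40, 56, 72 and 120 h. Rpl37a had 843, 321, 656 and 486 bases in those lists. Both were missing at 0 and 24 h. The promoter region of Rpl34 was 1111 bases wide at both 24 and 40 h, was not called at 56 h, and had 742 and 727 bases at 72 and 120 h. Rpl14 also had a region 7592 bases beyond the gene that was called at 0 and 24 h only, with 916 and 889 bases, so its start and its distant region were never called in the same list. Distances from the 11 gained regions to the nearest E2 peak ran from 2313 bases at Rpl35 to 127044 bases at Rpl37a, so none was a near miss of the overlap rule. The median width of the 11 gained regions at 120 h was 580 bases, against 592 bases for the 53 kept regions of members at their boundary.

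The lost boundary regions belonged to Rpl8, Rpl18, Rpl32, Rpl36 and Rps4x. They had a median E2 width of 588 bases (338 to 723), against 954 bases (396 to 2013) for the kept ones, and these ranges overlapped. Over boundary regions of all genes, the median E2 width was 889 bases for lost and 977 bases for kept ones. Rps4x, the X-linked gene of a small-subunit protein, was 588 and 680 bases wide at 0 and 24 h, not called at 40 h, and 397 and 513 bases wide at 56 and 72 h. Rpl8 had 645 bases at 0 h, was missing at 24 h, and had 350, 314 and 335 bases at 40, 56 and 72 h. Both genes thus had a missing call before the 120 h list. Rpl36 (chromosome 17, 56613321 to 56613658), inside the gene 588 bases from its boundary, was called at 0 h with 338 bases and at 56 h with 271 bases only. Rpl18 had 428, 315, 183, 384 and 326 bases from 0 to 72 h and Rpl32 had 723, 574, 747, 534 and 657 bases. The Rpl18 region overlapped the outer boundary of the gene but not its start in the RefSeq promoter table.

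Absent from 120 h alone were 5 member regions (6.33%), against 6.59% of all regions and 8.18% of boundary regions. Besides Rpl18 and Rpl32 these were the region inside Rpl17, at the exit tunnel (1041 bases in E2), and those 2477 bases from Rpl12 (1009 bases) and 2877 bases from Rpl21 (484 bases). Rpl12 and Rpl21 each had a start region as well, called in every list. Further incomplete calls were those of Rpl31, missing at 24 and 40 h, Rpl19, missing at 24 h, and the region 18643 bases from Rps20, missing at 0 and 120 h. Rpl31 was 1111 bases wide in E2 and 375, 539 and 544 bases at 56, 72 and 120 h.

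Between neighbouring lists up to 56 h, more member regions appeared than disappeared, while over all regions and over boundary regions more disappeared. From 0 to 24 h, 9 regions appeared and 5 disappeared, from 24 to 40 h 5 appeared and 2 disappeared, and from 40 to 56 h 4 appeared and 1 disappeared. The regions that disappeared were 7.46%, 2.82% and 1.35% of the members' regions in the earlier list, against 11.7%, 12.3% and 11.3% of boundary regions. Those that appeared were 12.7%, 6.76% and 5.19% of the members' regions in the later list, against 8.79%, 9.17% and 8.83% of boundary regions. From 56 to 72 h 1 appeared, Rpl34, and 1 disappeared, Rpl36. From 72 to 120 h 8 disappeared (10.4%, against 20.5% of boundary regions) and 0 appeared. Of the 20 lost or gained regions, 16 (80.0%) changed once along this order, against 84.7% of all lost or gained regions and 76.0% at boundaries.

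Regions called in all 4 add-back lists give a comparison in which only the end lists differ. Of 60 such member regions at their own boundary, 7 were absent from continuous E2 (11.7%, interval 5.77 to 22.2) and 2 from 120 h (3.33%, 0.919 to 11.4). These 7 are the regions described above as absent from continuous E2 alone, so the count repeats that result over another denominator. Whether the E2 list is complete there cannot be told. Of 5054 such boundary regions of all genes, 284 were absent from E2 (5.62%) and 714 from 120 h (14.1%). Among mitochondrial ribosomal protein genes, 2 of 30 were absent from E2 and 5 from 120 h. Among translation factors 1 of 26 was absent from E2 and 3 from 120 h, and among ribosome biogenesis genes 2 of 26 and 3. The intervals of these 3 lists overlapped those of the members at both ends. The difference between members and other genes was not tested.

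Other gene lists of protein synthesis give the calls of related genes, and no difference between lists was tested. The 78 mitochondrial ribosomal protein genes, whose products build the ribosome of mitochondria, had 61 regions with 33 kept, 22 lost and 5 gained. Their lost share was 40.0%, and their gained share of 13.2% (interval 5.75 to 27.3) lay inside the interval of the cytosolic ribosomal proteins. At their own boundary they were called in 91.3% at 0 h, 73.9% at 56 h and 65.2% at 120 h (n = 46). Translation initiation, elongation and release factors (38 genes, 38 regions) had 30 kept, 5 lost and 1 gained, and ribosome biogenesis genes (48 genes, 40 regions) had 31 kept, 4 lost and 2 gained. Their lost shares, 14.3% and 11.4%, lay inside the interval of the cytosolic ribosomal proteins. Their gained shares of 3.23% (1 of 31) and 6.06% (2 of 33) lay below that for gained regions, 9.14 to 26.3. Their own intervals, 0.572 to 16.2 and 1.68 to 19.6, overlapped it. At 120 h the boundary regions of the factors were called in 84.8% and those of biogenesis genes in 87.9%, against 92.8% for cytosolic ribosomal proteins. Of the ribosomal genes that the symbol rule leaves out, Rack1, a scaffold on the small subunit, had a boundary region missing at 120 h alone and a region 11481 bases away called at 0 and 24 h, and Fau had none.

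Among role genes called in every list, widths in the order 0, 24, 40, 56, 72 and 120 h were as follows. Rps19, the gene most often mutated in Diamond-Blackfan anemia, had 1042, 1018, 864, 784, 834 and 818 bases. Rps14 had 1225, 1196, 901, 868, 767 and 690 bases, and Rpl11 had 1030, 819, 570, 707, 565 and 594 bases. The 120 h width was 0.563 of the E2 width at Rps14, 0.577 at Rpl11 and 0.785 at Rps19. Boundary regions called in every list had a median of 0.668 (quartiles 0.569 and 0.771), so these ratios lay near its quartiles. Rplp0, the base of the stalk, stayed between 647 and 694 bases. Rpl5 had 983 bases at 0 h and 754 at 120 h, Rps6 had 991 and 680, Rpl22 had 927 and 601, Rpl39 had 863 and 628, Rpl10 had 1369 and 849, and Rps27a, a ubiquitin fusion, had 1132 and 734.

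Within the members, large-subunit genes had 33 kept, 8 lost and 6 gained regions, and small-subunit genes 21, 1 and 5. Their lost shares were 19.5% (interval 10.2 to 34.0) and 4.55% (0.807 to 21.8). The background was 50.6% over all regions and 29.6% at boundaries. Gained shares were 15.4% (7.25 to 29.7) and 19.2% (8.51 to 37.9), against 18.4% and 9.96%. The intervals of the 2 subunits overlapped for both shares, and no difference between them was tested. Of the 17 Diamond-Blackfan genes, 16 had a region, and 13 of those were kept. The regions of Rps10 and Rpl35, which covered an annotated start, were gained. The region of Rpl18, which did not cover the start in the RefSeq promoter table, was lost. Rps28 was the gene with no region of its own. Small nucleolar RNAs lay inside 29 of the 90 members (32.2%), against 1.70% of all protein-coding genes, and numbered 56 in all. Regions of these hosts were called in every list in 23 of 30 cases (76.7%), and those of other members in 32 of 49 (65.3%). Rpl13a and Rpl7a held 4 small nucleolar RNAs each and Rpl4 held 5. Rpl13a and Rpl7a were called in every list, and the region over Rpl4 was missing at 24 and 56 h.

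Peaks at members were narrower in the later lists, as were those of all boundary regions. Where a list had several peaks in 1 region, their widths were summed. In the 55 regions called in all lists the median width was 927, 816, 696, 599, 618 and 595 bases at 0, 24, 40, 56, 72 and 120 h. All boundary regions called in every list (n = 4120) had 964, 867, 768, 660, 658 and 628 bases. The 120 h width was a median of 0.668 of the E2 width in both sets, and 53 of the 55 member regions were narrower at 120 h. At the single steps, 49 of 55 were narrower at 56 than at 40 h but 23 at 72 than at 56 h. The lists give no depth, so whether depth moved with width was not tested.

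Among the 55 regions called in every list, the widest E2 peaks were those of Rpl41, with 2013 bases, Rpl10 with 1369, Rps21 with 1346, Rpl15 with 1326 and Rpl37 with 1264. The region of Rpl41 (chromosome 10, 128547412 to 128549424) covered the whole gene, which encodes the smallest ribosomal protein, and the boundary of Zc3h10. The narrowest in this set were Rpl13 and Rps27 with 396 bases each, Rpl24 with 507, Rplp1 with 573 and Rpl28 with 589. The smallest ratio was that of Rps21, with 563 bases at 120 h or 0.418 of its E2 width. Other small ratios were those of Rpl3, which lies at the peptidyl transferase centre (0.506), Rpl41 (0.507) and the region 1886 bases from Rpl14 (0.512). At Rpl41 the outer edges hardly moved. They lay 256 bases before and 1756 after the start at 0 h, and 228 and 1743 bases at 120 h. Its summed width of 1021 bases at 120 h thus left out a gap between separate peaks. Rpl13 went from 396 to 562 bases (1.42) and Rpl24 from 507 to 521 bases (1.03), the 2 regions that were wider at 120 h. Rps27, Rplp1 and Rpl26 were nearly as wide in both lists, with ratios of 0.970, 0.970 and 0.968. With 1 list per group, no spread is known for these ratios.

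**Figure D3:**
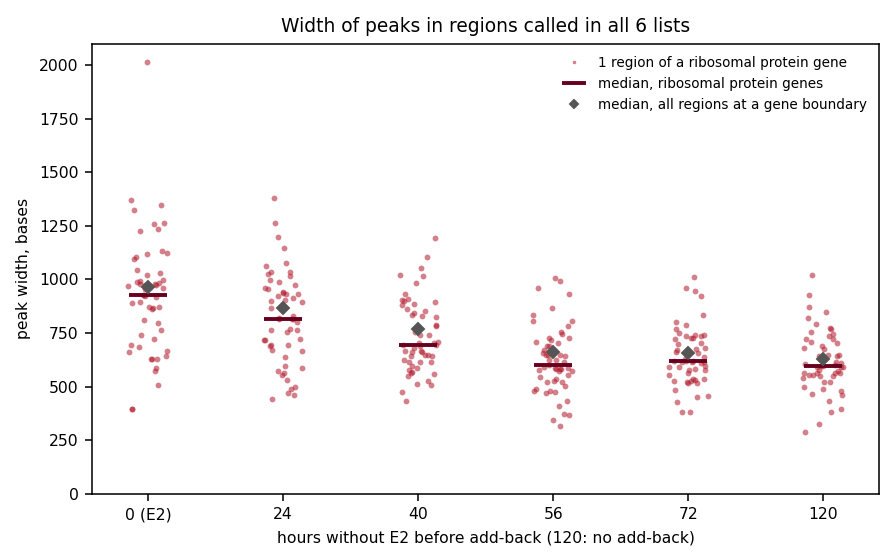
Points are the widths in bases of the 55 regions of ribosomal protein genes called in all 6 lists, by hours without E2, with their median as a bar and the median of all 4120 boundary regions called in all lists as a diamond. The medians of members lie below the diamonds in every list and go from 927 bases at 0 h to 595 at 120 h.

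Around the gene start the peaks were shorter on both sides at 120 h than in E2. For 35 members with 1 annotated start inside a region called in every list, the median upstream edge lay 387 bases before the start at 0 h and 296 bases before it at 120 h. Their downstream edge lay 425 bases after the start at 0 h and 295 after it at 120 h. Among 3168 genes of any kind chosen in the same way, the edges lay at 432 and 495 bases at 0 h and at 302 and 298 bases at 120 h. The downstream edge drew in more than the upstream one in 17 of the 35 members (48.6%) and in 63.2% of all genes. The centres of the members' peaks had a median of 13.0 bases after the start at 0 h and 12.0 at 120 h.

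**Figure D4:**
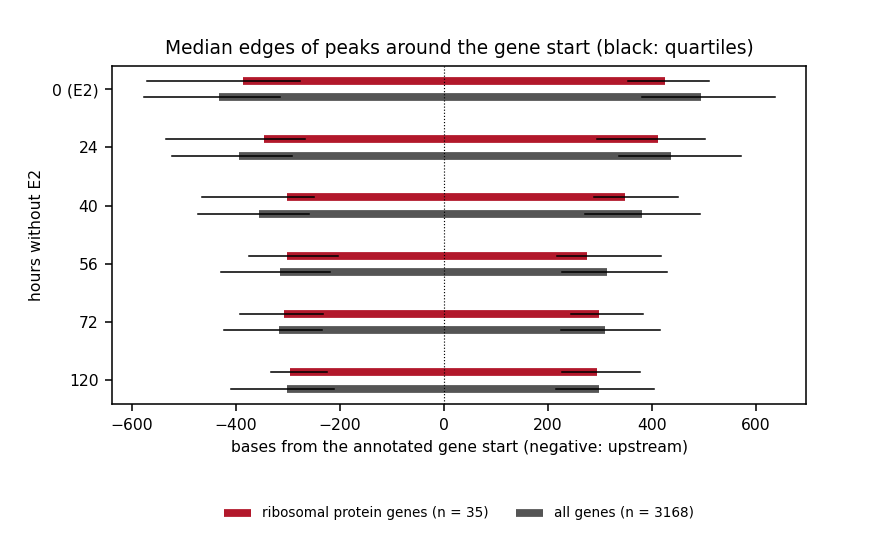
Bars run from the median upstream edge to the median downstream edge of the peak around the annotated gene start, in bases, for each list by hours without E2, with quartiles of each edge as black lines. Peaks of the 35 ribosomal protein genes and of 3168 genes reach 425 and 495 bases downstream at 0 h and 295 and 298 bases at 120 h.

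Of the 90 members, 69 had a promoter in the RefSeq table, from 250 bases before to 50 after the start, and the first start listed was used. Among the genes not in the table were Rpl3, Rpl7, Rpl8, Rpl17, Rpl21, Rpl23a, Rpl29, Rpl30, Rpl32, Rpl34-ps1, Rpl36, Rplp1, Rps14, Rps20, Rps27a and Rps29. A C followed by at least 4 C or T at the annotated start, the mark of a TOP transcript, was found in 14 of 69 (20.3%, interval 12.5 to 31.2), against 2.17% of 17492 protein-coding genes and 0 of 69 mitochondrial ribosomal protein genes. Among the genes with it were Rpl14, Rpl35, Rpl38 and Rps10, all gained, and Rps6 and Rps21, called in every list. A run of 8 or more C or T within 20 bases of the start, a search added after the data were seen, stood in 30 of 69 (43.5%, against 15.5% of all genes). The ETS core CCGGAAG was in 24 of 69 (34.8%, against 11.9%) and in 36.2% of mitochondrial ribosomal protein promoters. AANATGGCG, for YY1, was in 8 (11.6%, against 3.30%). The GC box GGGCGG was in 39 (56.5%, against 46.3%), TATAAA in 8 (11.6%, against 13.3%), GCATGCGC for NRF1 in 2 (2.90%, against 3.61%) and the E-box CACGTG in 5 (7.25%, against 7.90%). Promoters of genes open in every list give another background. Among 3384 genes with a boundary region in all lists, the ETS core was in 25.0%, the YY1 letters in 6.77%, the GC box in 73.5% and the TOP start in 2.25%. Both strands were searched for the 6 named motifs, and no motif contains another.

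In the promoters printed above, the capitals of Rpl41 are an ETS core and a GC box, and those of Rps4x are GC boxes. Rpl38 has a GC box, an ETS core and pyrimidine runs at the start, Rpl14 has GC boxes and a pyrimidine run, and Rpl34 has a YY1 match and a pyrimidine run. Rpl10 has no match in the stretch shown. Of the 10 gained members in the table, 3 had the ETS core (30.0%) and 4 the TOP start (40.0%, interval 16.8 to 68.7). Of the 42 members with a region in every list, 15 had the ETS core (35.7%) and 7 the TOP start (16.7%, 8.32 to 30.6). The intervals for the TOP start overlap. Rpl14, which has the TOP start, counts in both sets, because its start region was gained and its region 1886 bases off was called in every list. Such matches describe letters near annotated starts and were not tested against the calls.

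**Figure D5:**
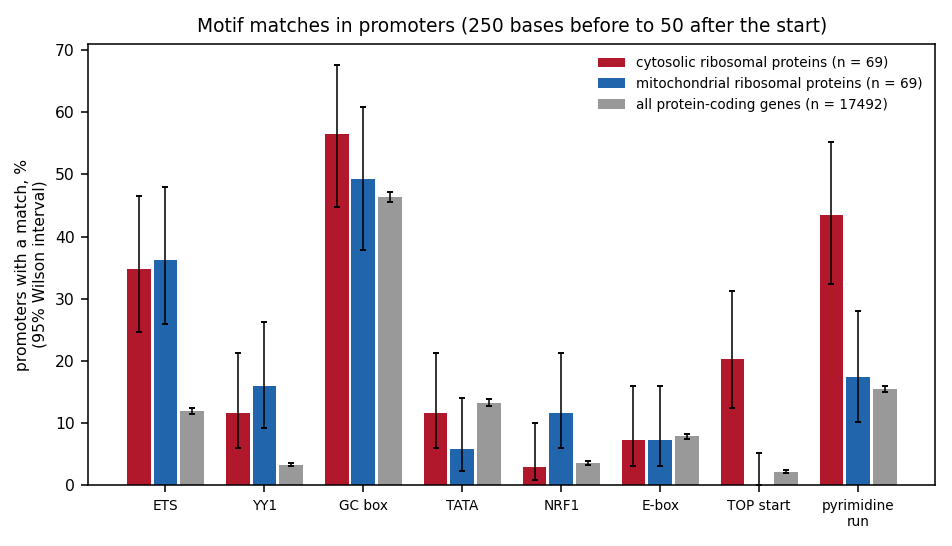
Bars give the percentage of promoters with at least 1 match to each motif, with 95% Wilson intervals, for 69 cytosolic and 69 mitochondrial ribosomal protein genes and 17492 protein-coding genes. TOP start and pyrimidine run are read on the gene's strand near the start, and the other motifs on both strands; the TOP start reaches 20.3% in cytosolic ribosomal protein genes and 0 in mitochondrial ones.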

How the data were processed

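The series held 12 ATAC-seq libraries in 6 groups of 2, with 1 peak list per group, named in the labels of both libraries. The deposited lists give peak positions only (BED start and end, no score, count or signal). Per the submitters' processing notes the tools were MACS2 2.0, STAR 2.5 and BWA (no version), and the build mm9, with no role for each. However, 47.5% to 62.3% of peaks covered a GRCm38 gene start, against 1.15% to 1.77% after a shift of 100000 bases, so GRCm38.p6 was used. How the libraries were combined, and their depth, are not given in the sources used here.

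Exact duplicate rows and intervals over 10000 bases were dropped, overlapping rows merged, and the lists merged into union regions. A list called a region where it overlapped it by 1 base or more. The width of a region in a list was the summed width of the list's peaks in it. Shares have Wilson intervals, and regions of 1 gene or shared starts are not independent. Members, gene lists and motifs were chosen with earlier results of these data known. The genes named are all members with no region, more than 1 region or an incomplete set of calls, the 5 widest and narrowest, the 5 largest and smallest width ratios, and members of stated roles. Some genes count in the totals but are not reported here by name or drawn by row. Promoters were printed where the region covered a start in the table. Alternatives covered assignment, overlap, list length, peak width, chromosomes, boundary window and paralogs. Cleaning, calls and assignment were tested on simulated data. Python 3.11.15, numpy 2.4.6, pandas 2.3.3, scipy 1.17.1 and matplotlib 3.10.9 were used.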

Additional observations from a re-analysis of the deposited data

How the results depend on the processing

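No paired analysis was possible because each group's pair of libraries shares 1 peak list, so no library could be left out either. Of 93 recomputed values, 76 stayed within the interval of the value reported and 17 did not. With lists reduced to their 7987 widest peaks, calls went to 60.0% at 0 h and 72.0% at 24 h, lost regions to 6.67%, gained regions to 39.1% and regions in all lists to 49.3% (all regions 38.5%, 38.3% and 29.7%). With only peaks no narrower than their list's median, calls were 67.7%, 61.3%, 64.5%, 54.8%, 72.6% and 61.3% from 0 to 120 h, lost regions 38.1%, gained regions 31.6% and regions in all lists 25.8% (all regions 53.4%, 23.4% and 23.3%). The shares over all regions in these settings were added after seeing the data. Under 50% reciprocal overlap, calls at 56 h were 91.1%. With the 24 h list in place of continuous E2, gained regions were 8.70%. Leaving out the continuous E2 list or the 120 h list gave 78.5% or 75.9% of regions called in all other lists, and these 3 settings were chosen after seeing the data. Within 2500 bases of their boundary lay 94.9% of regions. The cause of these shifts was not tested, beyond the fewer peaks that shorter lists hold. In all 7 settings that recomputed the calls, the share at 72 h lay above that in continuous E2, by 4.90 to 34.7 points. The smallest difference, with only the wider peaks, had overlapping intervals (55.4 to 78.0 in E2 and 60.4 to 82.1 at 72 h). The largest came with lists of equal length, which drop more peaks from the longer E2 list than from the 72 h list. Several of the 7 settings hardly changed the regions. Assignment within 20000 bases left the 79 regions and their calls unchanged, and its values count among the 76. Assignment within 100000 bases gave 80 regions, and leaving out chromosomes 18 and 19 gave 77. The share at 56 h lay below that in continuous E2 with only the wider peaks (54.8% against 67.7%).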
